A study of Bos grunniens with 18 samples.

Results

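Platelet and megakaryocyte genes were examined in the whole blood of female yaks at 3 reproductive stages. The genes were chosen by name from the deposited table, which lists 20607 genes: *PF4*, *PPBP*, *VWF*, *SELP*, *GP1BA*, *ITGA2B*, *ITGB3*, *TUBB1*, *MYLK* and *PDE3A*. Of these 10 names, 8 have a row in the table, and no row carries the name *PF4* or *PPBP*, so these granule chemokines were not analysed here. The 8 genes with a row all passed the filter on low counts and were tested among 14508 genes.

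Blood was followed through anestrus (the Y-A group), estrus (the Y-E group) and pregnancy (the Y-P group) in a herd bred by artificial insemination, of which 6 adult cows in the second year of calving, aged 4 to 8 years, were chosen for sequencing. Each stage holds 6 libraries, 18 in all. Estrus in the herd was synchronised with a progesterone pessary, cloprostenol and GnRH, followed by timed insemination. The labels give no animal identifier, so it is not stated which libraries of different stages come from the same cow, and there is no group of untreated cows sampled alongside. Blood was drawn into EDTA tubes and mixed with TRIzol LS, and polyadenylated RNA was sequenced, so every cell type of the blood contributes in proportion to its RNA.

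Platelets carry no nucleus, and the RNA they hold comes from the megakaryocytes of the bone marrow that shed them. At an injured vessel wall the platelet glycoprotein Ib complex catches von Willebrand factor, activation then opens the fibrinogen receptor built from integrin alpha-IIb and beta-3, and granules release their content while the cytoskeleton changes the shape of the cell. In the yak table the adhesion genes are *VWF* (ENSBGRG00000002102, chromosome 5, 111349180 to 111492772, plus strand) and *SELP* (ENSBGRG00000003978, chromosome 14, 33494281 to 33542893, minus strand). The receptor genes *GP1BA* (ENSBGRG00000026209, 41672752 to 41675108, plus strand), *ITGA2B* (ENSBGRG00000025212, 21542006 to 21673824, plus strand) and *ITGB3* (ENSBGRG00000019226, 19167450 to 19238378, minus strand) all lie on chromosome 19. The remaining genes are *TUBB1* (ENSBGRG00000024823, chromosome 12, 50777319 to 50783237, minus strand), *MYLK* (ENSBGRG00000008571, chromosome 1, 73669379 to 73992749, minus strand) and *PDE3A* (ENSBGRG00000003042, chromosome 5, 13341182 to 13744950, plus strand). All 8 are listed as protein-coding, and the positions are those of the deposited *Bos grunniens* annotation with Ensembl identifiers. Only *ITGA2B* overlaps other listed genes: ENSBGRG00000025156 on the same strand, with 11 to 70 counts per library, and ENSBGRG00000025473 on the opposite strand, with 33 to 139 counts.

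Total counts ran from 30247267 to 41016667 in the Y-A libraries, from 31704498 to 46404156 in the Y-E libraries and from 30343748 to 48401076 in the Y-P libraries, so 3 counts, the limit that a count of 0 allows, correspond to 0.0620 to 0.0992 CPM, the count scaled to the size of the library. Of the 144 values of the 8 genes, 4 were at 0 counts: *GP1BA* in Y-P replicates 1, 2 and 6, and *PDE3A* in Y-P replicate 4. Hemoglobin genes took 3.10% to 16.7% of the counts in the Y-A libraries, 0.0272% to 0.376% in the Y-P libraries and 0.0899% to 0.713% in 5 Y-E libraries. Y-E replicate 6 stood apart from its group at 8.36%, and results that use the Y-E group are therefore also given without it. In blood as a whole, fewer platelets and less RNA per platelet cannot be told apart.

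Per length, *TUBB1* was the most abundant of the 8 transcripts. *TUBB1* encodes beta-1 tubulin, the isoform that forms the marginal microtubule band of platelets, and its level averaged 90.2 ± 34.5 FPKM (SD over 18 libraries), higher than 95.9% of all listed genes. *ITGA2B* followed at 21.4 ± 3.72 FPKM. *ITGB3* at 5.53 ± 1.14 FPKM and *SELP* at 5.25 ± 1.47 FPKM did not differ beyond their spread, and they changed places between stages. *VWF* averaged 1.90 ± 1.42 FPKM. The lowest 3 genes, *GP1BA* at 0.347 ± 0.306, *PDE3A* at 0.316 ± 0.194 and *MYLK* at 0.295 ± 0.136 FPKM, lay within each other's spread. The first 2 places and the place of *VWF* were the same in all 3 stages.

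In pregnancy against anestrus (Y-P vs. Y-A), 5 of the 8 genes fell: *GP1BA*, *VWF*, *PDE3A*, *MYLK* and *TUBB1*. All 5 passed an adjusted p of 0.05 in edgeR and fell by at least 1 on the log2 scale, as did 1.09% of all genes tested (3.61% fell at the adjusted p alone). None of the 8 rose. The median log2 fold change over the 8 genes was −1.40, against 0.031 over all genes tested. Without Y-E replicate 6, which enters the estimate of the spread, 5 of 8 passed both thresholds as well, beside 1.21% of all genes.

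In pregnancy against estrus (Y-P vs. Y-E), *GP1BA*, *PDE3A*, *VWF*, *TUBB1* and *MYLK* were again the 5 genes that fell by at least 1 on the log2 scale. Without Y-E replicate 6 they were 5 as well, beside 2.12% of all genes. With all libraries, both thresholds were passed in this direction by 2.22% of all genes tested, and the adjusted p alone by 8.68%. The median over the 8 genes was −1.23 on the log2 scale, against 0.042 over all genes. Both comparisons use the same 6 Y-P libraries, so they are not independent of each other.

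In estrus against anestrus (Y-E vs. Y-A), none of the 8 genes passed the test. At an adjusted p of 0.05, 0 of 8 passed in edgeR, beside 0.0207% of all genes. In DESeq2 0 of the 5 genes that it gave an adjusted p passed, beside 0.462% of all genes. The unadjusted p was under 0.05 for 0 of 8 in either tool. Every gene had overlapping ranges in these stages, where 0.172% of all genes had all Y-E libraries below all Y-A libraries. The median log2 fold change of the 8 genes was −0.12. The plot of CPM by library and stage shows how the separation of the Y-P libraries differed from gene to gene.

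**Figure D1:**
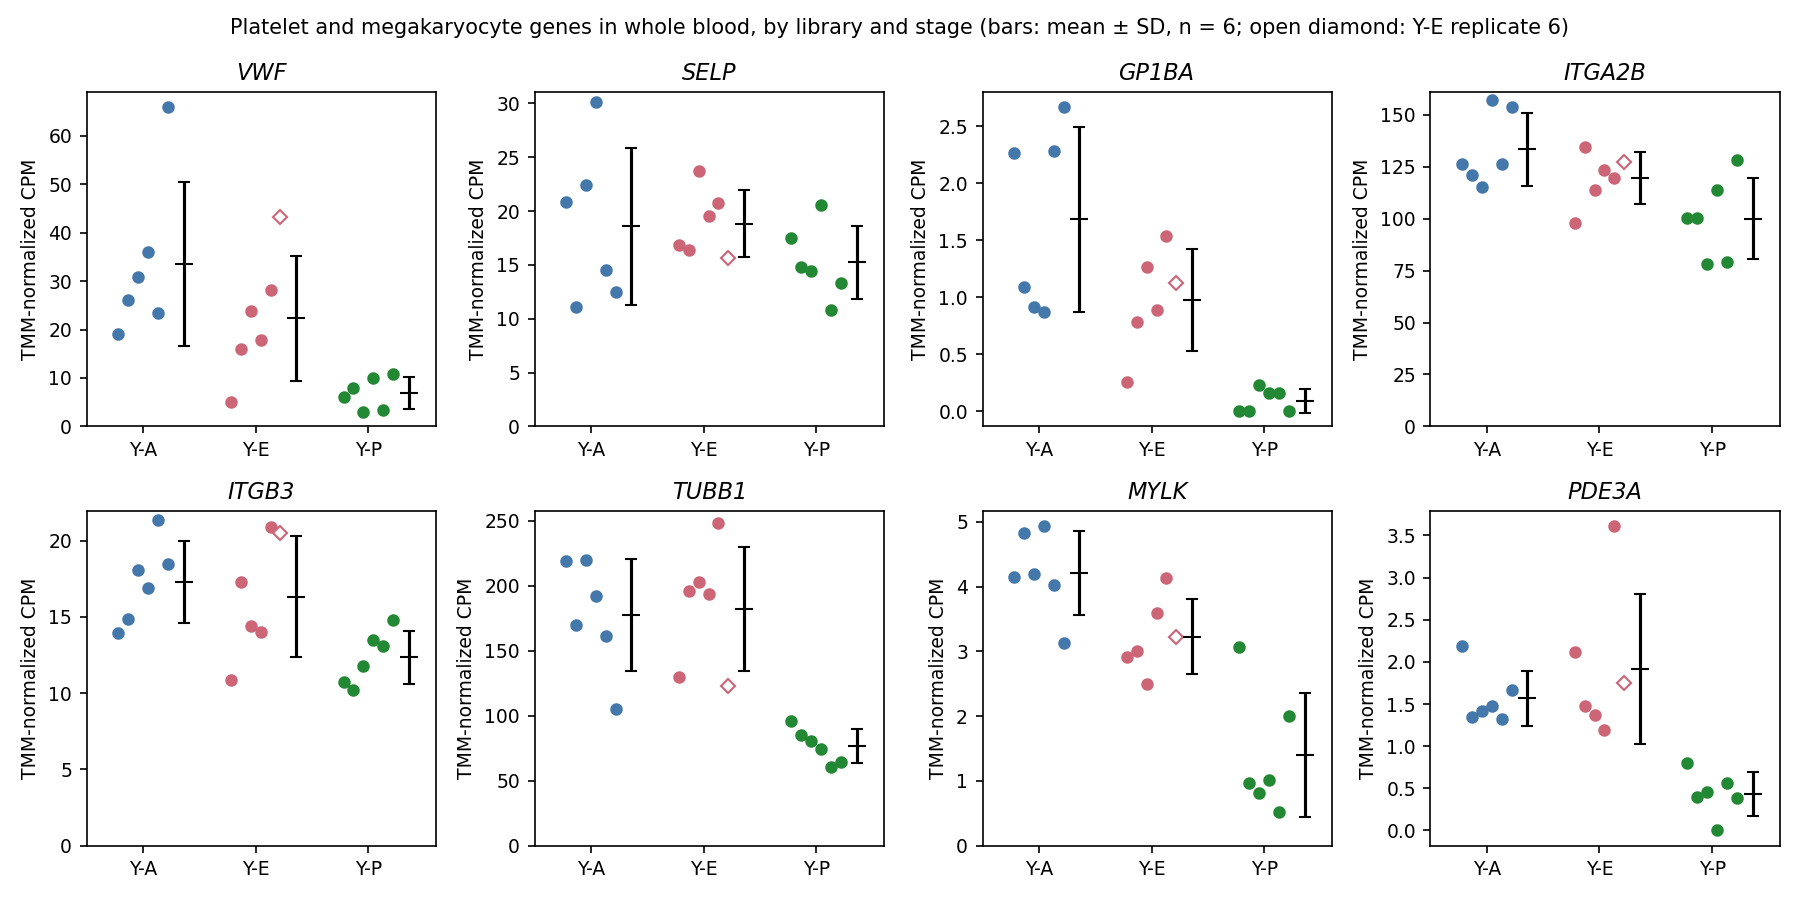
TMM-normalized CPM (y axis, linear scale, own range per gene) of 8 platelet and megakaryocyte genes in each of 18 libraries by stage (x axis). Circles are libraries, the open diamond is Y-E replicate 6, and bars give mean ± SD (n = 6). The Y-P libraries of *TUBB1* sit between 60.3 and 95.6 CPM, all below the Y-A and Y-E libraries, while those of *SELP* (10.8 to 20.6 CPM) overlap those of both other stages.

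The adhesive ligand of the set is *VWF*, the multimeric protein that platelets store in alpha-granules and endothelial cells in Weibel-Palade bodies. Its lowest, median and highest levels were 19.2, 28.5 and 65.9 CPM in the Y-A group, 5.12, 20.8 and 43.3 CPM in the Y-E group, and 2.96, 6.98 and 10.8 CPM in the Y-P group. Every Y-P library lay below every Y-A library, as for 2.32% of all genes tested, whereas the Y-E and Y-P ranges overlapped through the lowest Y-E library. *VWF* fell 4.92-fold against anestrus (log2 fold change −2.30, SE 0.43, adjusted p = 0.00673, edgeR). It fell 3.28-fold against estrus (−1.71, SE 0.43, adjusted p = 0.0120, edgeR). Without Y-E replicate 6, which held the highest Y-E level, the Y-E mean went from 22.4 ± 12.9 to 18.2 ± 8.75 CPM (SD, n = 5) and the difference from pregnancy to −1.41 (adjusted p = 0.0290, edgeR).

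Between estrus and anestrus, *VWF* showed the lowest unadjusted p of the 8 genes at 0.173, with a log2 fold change of −0.58 (SE 0.41, adjusted p = 0.977, edgeR). Y-A replicate 6, the library with the highest *VWF* level, also held the highest summed level of reticulocyte markers in the series (10575 CPM). Pearson r between each gene and that sum was taken over the 18 libraries, both as log2 CPM centred within stage. Among the 8 genes it ran from −0.665 for *TUBB1* to 0.463 for *VWF*. The part of red cell RNA in these values was not tested.

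*SELP* encodes P-selectin, a receptor of the granule membrane that appears on activated platelets and endothelium and holds leukocytes. Its levels were 11.1, 17.7 and 30.1 CPM (lowest, median and highest) in the Y-A group, 15.6, 18.2 and 23.7 CPM in the Y-E group, and 10.8, 14.6 and 20.6 CPM in the Y-P group. The 3 stages overlapped throughout. The log2 fold change was −0.29 (SE 0.22, adjusted p = 0.464, edgeR) against anestrus and −0.31 (SE 0.22, adjusted p = 0.379, edgeR) against estrus.

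*GP1BA* encodes the chain of the glycoprotein Ib complex that binds von Willebrand factor. It was scarce in all stages, with 26 to 81 counts in the Y-A libraries, 8 to 52 in the Y-E libraries and 0 to 10 in the Y-P libraries. As CPM the lowest, median and highest values were 0.873, 1.68 and 2.67 in the Y-A group, 0.253, 1.01 and 1.54 in the Y-E group, and 0, 0.0786 and 0.226 in the Y-P group. All Y-P libraries lay below all Y-A and all Y-E libraries, the latter as for 3.84% of all genes tested. The log2 fold change was −4.13 (SE 0.78, adjusted p = 0.00673, edgeR) against anestrus and −3.34 (SE 0.76, adjusted p = 0.00694, edgeR) against estrus. With 3 Y-P libraries at 0 counts, the size of these differences depends on the small count that the fit adds to each value.

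Neither subunit of the fibrinogen receptor passed the main test in edgeR, with all libraries in the fit and stage as the only factor. DESeq2, with the same libraries and factor, called both subunits against anestrus, and *GP1BA* too (3 of 3 receptor genes). Against estrus DESeq2 called 1 of these 3 genes. The share of all genes that DESeq2 called in these comparisons is not given here. *ITGA2B*, which encodes the alpha-IIb subunit found on the megakaryocyte lineage, measured 115, 126 and 157 CPM (lowest, median and highest) in the Y-A group, 98.1, 121 and 135 CPM in the Y-E group, and 78.1, 100.3 and 128 CPM in the Y-P group. The ranges of all 3 stages overlapped. Its log2 fold change against anestrus was −0.41 (SE 0.13, adjusted p = 0.0556, edgeR). Against estrus the difference was −0.26 (SE 0.13, adjusted p = 0.182, edgeR).

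*ITGB3* encodes the beta-3 subunit, which also pairs with integrin alpha-V on other cells. It measured 13.9, 17.5 and 21.4 CPM in the Y-A group, 10.8, 15.8 and 20.9 CPM in the Y-E group, and 10.2, 12.4 and 14.8 CPM in the Y-P group. Y-P libraries lay low in the range, and some overlapped both other stages. Against anestrus the log2 fold change was −0.48 (SE 0.16, adjusted p = 0.0747, edgeR). Against estrus it was −0.40 (SE 0.16, adjusted p = 0.0960, edgeR). *ITGA2B* passed against anestrus once Y-E replicate 1 (adjusted p = 0.0438, edgeR) or Y-P replicate 6 (0.0280) was left out, and *ITGB3* passed against anestrus (0.0452) and estrus (0.0318) without Y-E replicate 1. With replicate numbers added to the fit as a block and all libraries kept, *ITGA2B* passed against anestrus (adjusted p = 0.0225, edgeR). In that fit *ITGB3* passed against anestrus (0.0292) and estrus (0.0434).

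Among the cytoskeletal genes, *TUBB1* had the smallest p of the set. It measured 105, 181 and 220 CPM (lowest, median and highest) in the Y-A group and 123, 195 and 248 CPM in the Y-E group, against 60.3, 77.5 and 95.6 CPM in the Y-P group. No Y-P library reached the lowest library of either other stage. *TUBB1* fell 2.32-fold against anestrus (log2 fold change −1.21, SE 0.19, adjusted p = 0.00234, edgeR), where its p ranked 23rd among all genes. It fell 2.37-fold against estrus (−1.25, SE 0.19, adjusted p = 0.000556, edgeR). Between estrus and anestrus the log2 fold change was 0.035 (SE 0.19, adjusted p = 0.999, edgeR).

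*TUBB1* was also set against *ITGB3* in the same libraries. Within a library, the ratio of *TUBB1* to *ITGB3* FPKM was 9.88 to 27.3 in the Y-A group (median 19.8), 10.5 to 24.5 in the Y-E group (median 20.8) and 7.57 to 15.6 in the Y-P group (median 10.8). The Y-E and Y-P ranges overlapped only through Y-E replicate 6, and without it the Y-E libraries ran from 19.7 to 24.5. The Y-A and Y-P ranges overlapped through Y-A replicates 5 (13.2) and 6 (9.88). This ratio was not tested.

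*MYLK* encodes myosin light chain kinase, which acts on the contractile apparatus of platelets and of smooth muscle. It measured 3.13, 4.17 and 4.94 CPM in the Y-A group, 2.50, 3.12 and 4.14 CPM in the Y-E group, and 0.524, 0.994 and 3.07 CPM in the Y-P group. The highest Y-P value came from replicate 1, which lay just below the lowest Y-A library and inside the Y-E range. *MYLK* fell 3.02-fold against anestrus (log2 fold change −1.59, SE 0.33, adjusted p = 0.0118, edgeR). Against estrus it fell 2.31-fold (−1.21, SE 0.33, adjusted p = 0.0200, edgeR).

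*PDE3A* encodes a phosphodiesterase that breaks down cyclic AMP, the second messenger that holds platelets at rest. Its levels were 1.32, 1.45 and 2.18 CPM in the Y-A group, 1.19, 1.61 and 3.61 CPM in the Y-E group, and 0, 0.422 and 0.798 CPM in the Y-P group, the last from 0 to 28 counts. The Y-P libraries lay below all others. *PDE3A* fell 4.42-fold against estrus (log2 fold change −2.14, SE 0.53, adjusted p = 0.0116, edgeR). Against anestrus it fell 3.62-fold (−1.85, SE 0.53, adjusted p = 0.0442, edgeR). This last call rested on single libraries: of the 18 fits that left out 1 library each, it passed in 4, with adjusted p from 0.0214 to 0.0817. The 4 were the fits without Y-E replicate 4, Y-E replicate 6 (0.0495), Y-P replicate 1 or Y-P replicate 4.

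*TUBB1*, *VWF*, *GP1BA* and *MYLK* passed in both comparisons with pregnancy in each of these 18 fits, as did *PDE3A* against estrus. The plot of log2 fold changes sets the 3 comparisons side by side.

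**Figure D2:**
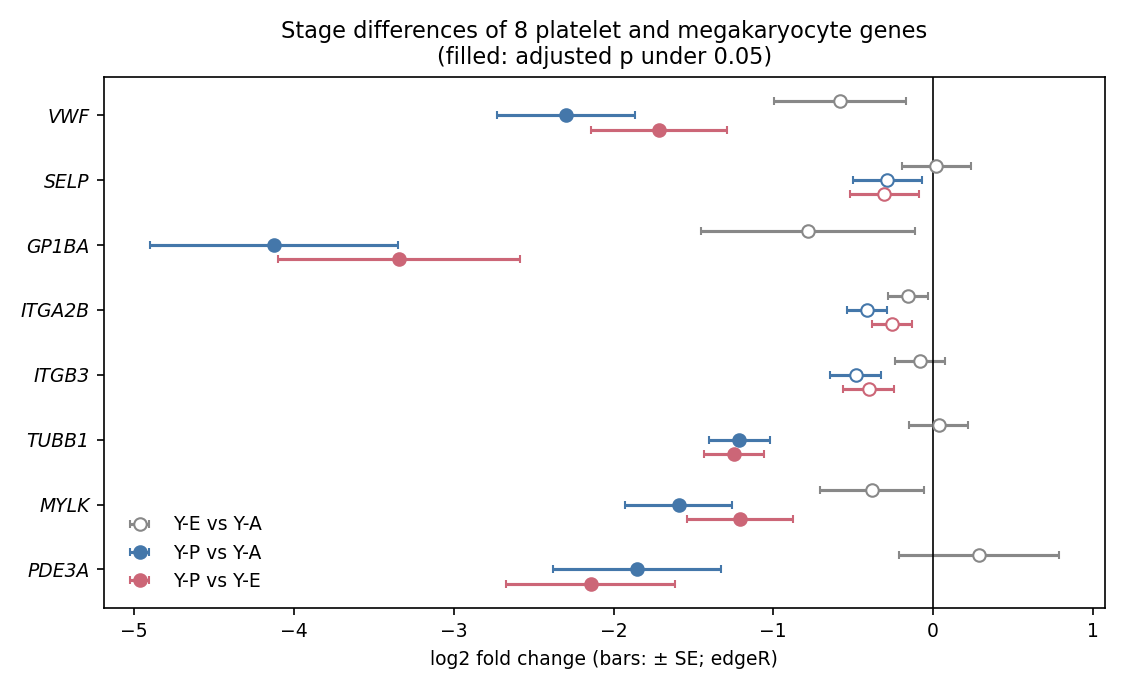
Log2 fold change (x axis) of the 8 genes (y axis) in the 3 comparisons, with bars of ± SE from edgeR; filled points have an adjusted p under 0.05. *GP1BA* lies farthest from 0, at −4.13 and −3.34 in the comparisons with pregnancy, and every point for estrus against anestrus is open.

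Apart from the difference between stages, the 8 genes varied together only in part. After each stage's mean was removed from the log2 CPM, the 28 pairs of genes had a median Pearson r of 0.0642 over the 18 libraries, against −0.00236 over all pairs of tested genes, and 15 of the 28 were positive. Libraries share cows between stages, and genes share depth and blood composition within a library, so r is given as a description. The highest values were 0.756 between *VWF* and *ITGA2B*, 0.620 between *SELP* and *TUBB1*, and 0.606 between *VWF* and *ITGB3*. The subunits *ITGA2B* and *ITGB3* stood at 0.396, and *GP1BA* and *MYLK* at −0.533. The heat map of these pairs shows no block that holds all 8 genes.

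**Figure D3:**
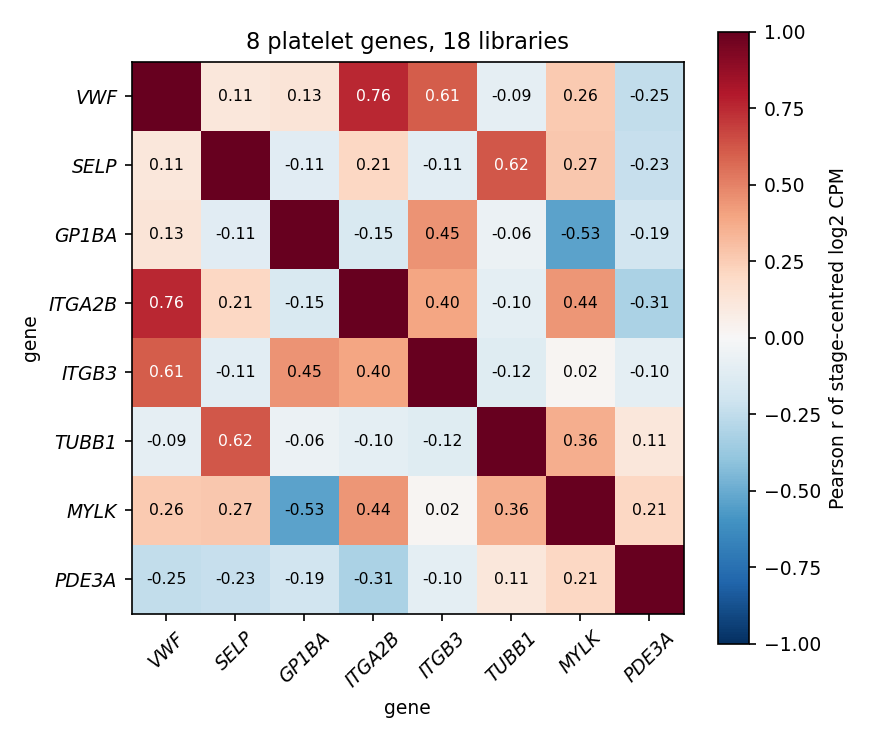
Pearson r between each pair of the 8 genes (both axes) over 18 libraries, from log2 CPM centred within stage; the colour scale runs from −1 (blue) to 1 (red). *VWF* is red with *ITGA2B* (0.756) and *ITGB3* (0.606), and *TUBB1* with *SELP* (0.620).

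Among 14500 other tested genes, the pattern most like the mean z-score of the 8 genes over the 18 libraries, centred within stage, belonged to ENSBGRG00000018365 (Pearson r 0.820). *SYDE2* (0.755), *PPTC7* (0.720), *C19orf84* (0.720) and *SIPA1L2* (0.713) came next. ENSBGRG00000018365 and *SYDE2* averaged 0.897 and 0.451 CPM, and without centring their r was −0.343 and −0.0627. The 5 were picked as the highest of 14500 values, and how high r runs by chance was not tested. Of these 5, ENSBGRG00000018365 rose against anestrus (log2 fold change 1.92, adjusted p = 0.0230, edgeR), the direction opposite to the 8 genes. The other 4 passed no comparison. The platelet gene of the wider lists with the highest value was *VCL*, which encodes vinculin, at 0.581 and rank 79.

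Of 90 other platelet and megakaryocyte genes in 5 lists, 74 have a row and 71 were tested. Against anestrus 12 of the 71 fell, beside 3.61% of all genes, and 3 rose, beside 2.22%. Against estrus 23 fell, beside 8.68% of all genes, and 4 rose, beside 5.77%. The median log2 fold change of the 71 was −0.29 and −0.37 in these comparisons. Between estrus and anestrus 0 passed in edgeR (9 at an unadjusted p under 0.05) and 1 in DESeq2, and the median was −0.0015. The gene called by DESeq2 was *MYH9*, the heavy chain of nonmuscle myosin, at 0.32 in edgeR (adjusted p = 0.438) and with an adjusted p of 0.0287 in DESeq2. Without Y-E replicate 6, 72 were tested, and 12 fell and 3 rose against anestrus, and 18 fell and 3 rose against estrus. With library size alone as the scaling, 10 of the 71 fell and 4 rose against anestrus, and 14 fell and 4 rose against estrus. That scaling moved the median log2 fold change of all genes to 0.19 and 0.18. The shares of all genes that fell or rose in these alternative fits are not given here, and those of the main fit do not apply to them.

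Among the adhesion and surface receptors, 3 of 12 tested genes fell in each comparison with pregnancy. *MPIG6B*, an inhibitory receptor of the megakaryocyte lineage, averaged 67.9 CPM in the Y-A group, 66.2 CPM in the Y-E group and 28.0 CPM in the Y-P group, with log2 fold changes of −1.28 against anestrus (adjusted p = 0.00436, edgeR) and −1.24 against estrus (0.00155). *LY6G6F*, a small platelet surface protein, stood at −1.63 (adjusted p = 0.00669, edgeR) and −1.45 (0.00401). The third was *TREML1*, a receptor of the alpha-granule membrane, chosen for naming after its values were seen, at −1.37 (0.0429) and −1.26 (0.0339). *TREML1* passed in 7 and 11 of the 18 fits that left out 1 library each. *PEAR1*, a platelet contact receptor, had a log2 fold change of −2.12 against anestrus with an SE of 1.41 (adjusted p = 0.399, edgeR).

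The cytoskeletal list held the largest number of falling genes, 5 of 15 against anestrus and 9 of 15 against estrus (4 with library size alone). *FHL1*, a LIM-domain protein, averaged 263 CPM in anestrus, 240.3 CPM in estrus and 140 CPM in pregnancy, with log2 fold changes of −0.91 and −0.77 (adjusted p = 0.00759 and 0.00632, edgeR). Against anestrus, *GNG11*, a G protein gamma subunit, stood at −1.16 (adjusted p = 0.00859, edgeR) and *PDLIM1*, an adaptor of the actin cytoskeleton, at −1.51 (0.0210). *PDLIM1* stood at −1.47 against estrus (0.0106). *CAVIN2*, a caveolar coat protein, had the largest difference at −3.88 (SE 0.99, adjusted p = 0.0289, edgeR), from 0.772 CPM in the Y-A group to 0.0465 CPM in the Y-P group, the latter under the floor of 3 counts. The adjusted p of *CAVIN2* was 0.0502 to 0.0622 without Y-A replicate 1 or 5 or Y-P replicate 2 or 4, and that of *PDLIM1* 0.0529 without Y-P replicate 2. Against estrus *CAVIN2* stood at −2.61 (adjusted p = 0.0755, edgeR). *TLN1*, which encodes talin, the protein that switches integrins to their active form and is found in leukocytes too, fell by 0.63 against estrus (adjusted p = 0.00267, edgeR), where it was highest in estrus at 3534 CPM. *TUBA8*, an alpha tubulin, had the largest positive value in the same comparison, 2.68 with an SE of 1.20 (adjusted p = 0.142, edgeR).

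The signalling list moved in both directions, with 2 lower and 3 higher of 19 genes against anestrus, and 5 lower and 3 higher against estrus. The 3 that rose were the same in both: *GUCY1B1*, a subunit of the nitric oxide receptor, at 0.84 and 0.92 (adjusted p = 0.0132 and 0.00277, edgeR), *F2R*, a thrombin receptor, at 0.48 and 0.47 (0.0149 and 0.00632), and *LAT*, an adaptor of T cell and platelet receptors, at 0.54 and 0.50 (0.0303 and 0.0222). *LAT* passed in 12 of the 18 fits without 1 library against anestrus and in 17 against estrus, where Y-P replicate 2 decided the call (0.0541). *PTGS1*, the cyclooxygenase that starts thromboxane synthesis, fell by 1.66 against anestrus (adjusted p = 0.0155, edgeR). The other gene that fell there was *P2RY1*, an ADP receptor named after its values were seen, at −0.84 (0.0234; without Y-P replicate 2 or 4 0.0538 and 0.0514). *TBXAS1*, thromboxane synthase, which monocytes also use, fell by 0.93 against estrus (adjusted p = 0.00395, edgeR). *F2RL3*, another thrombin receptor, fell by 2.45 against estrus (adjusted p = 0.0412, edgeR; without Y-E replicate 6 0.0961), and it passed in 7 of the 18 fits without 1 library. Also lower against estrus were *P2RY12*, the main ADP receptor, at −1.02 (0.0317; without Y-E replicate 6 0.0694) and *PRKG1*, a cyclic GMP-dependent kinase, at −1.17 (0.0471; without Y-E replicate 6 0.0847), both named after their values were seen. The count of lower genes against estrus thus went from 5 to 2 without that library. *PDE5A*, a cyclic GMP phosphodiesterase, stood at 0.56 against estrus (0.281).

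Granule and secreted proteins showed no change past the test against anestrus, 0 of 15 in edgeR, with 3 at an unadjusted p under 0.05 and 1 past the test in DESeq2. The largest difference there was that of *MMRN1*, an alpha-granule protein that binds factor V, at −2.09 (adjusted p = 0.221, edgeR). Against estrus 4 fell and 1 rose (1 and 1 with library size alone). The 4, named after their values were seen, were *STX11*, a membrane fusion protein of granule release, at −0.64 (adjusted p = 0.0199, edgeR), *NBEAL2*, which alpha-granules need to form, at −0.65 (0.0212), *F5*, coagulation factor V, at −0.61 (0.0311), and *STXBP5*, a regulator of granule release, at −0.54 (0.0412). Without Y-E replicate 6, *F5* (0.0534) and *STXBP5* (0.0569) did not pass, and *STX11* (0.0561 and 0.0561) and *NBEAL2* (0.0602 and 0.0506) did not pass without Y-E replicate 3 or 5. The gene that rose was *VPS33B*, a trafficking protein needed for alpha-granules, at 0.40 (adjusted p = 0.0461, edgeR), and without Y-E replicate 6 it did not pass (0.0795), as in 13 of the 18 fits without 1 library. Of 10 tested genes for megakaryocyte transcription factors, 2 fell in each comparison with pregnancy, *NFE2* and *GATA1* against anestrus and *NFE2* and *ETV6* against estrus. With library size alone, 0 fell against anestrus (*NFE2* adjusted p = 0.0568 and *GATA1* 0.0576, edgeR) and 2 against estrus. *GATA1*, a factor of megakaryocytes and red cell precursors, was named after its values were seen and stood at −0.81 (adjusted p = 0.0402, edgeR), and it passed in 9 of the 18 fits without 1 library. *NFE2*, which drives platelet release and is also used by red cell precursors, stood at −1.07 against estrus (adjusted p = 0.00160, edgeR) and −0.71 against anestrus (0.0356), where it passed in 13 of 18. *ETV6* fell by 0.68 against estrus (adjusted p = 0.00283, edgeR). The plot of the wider lists gives each tested gene.

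**Figure D4:**
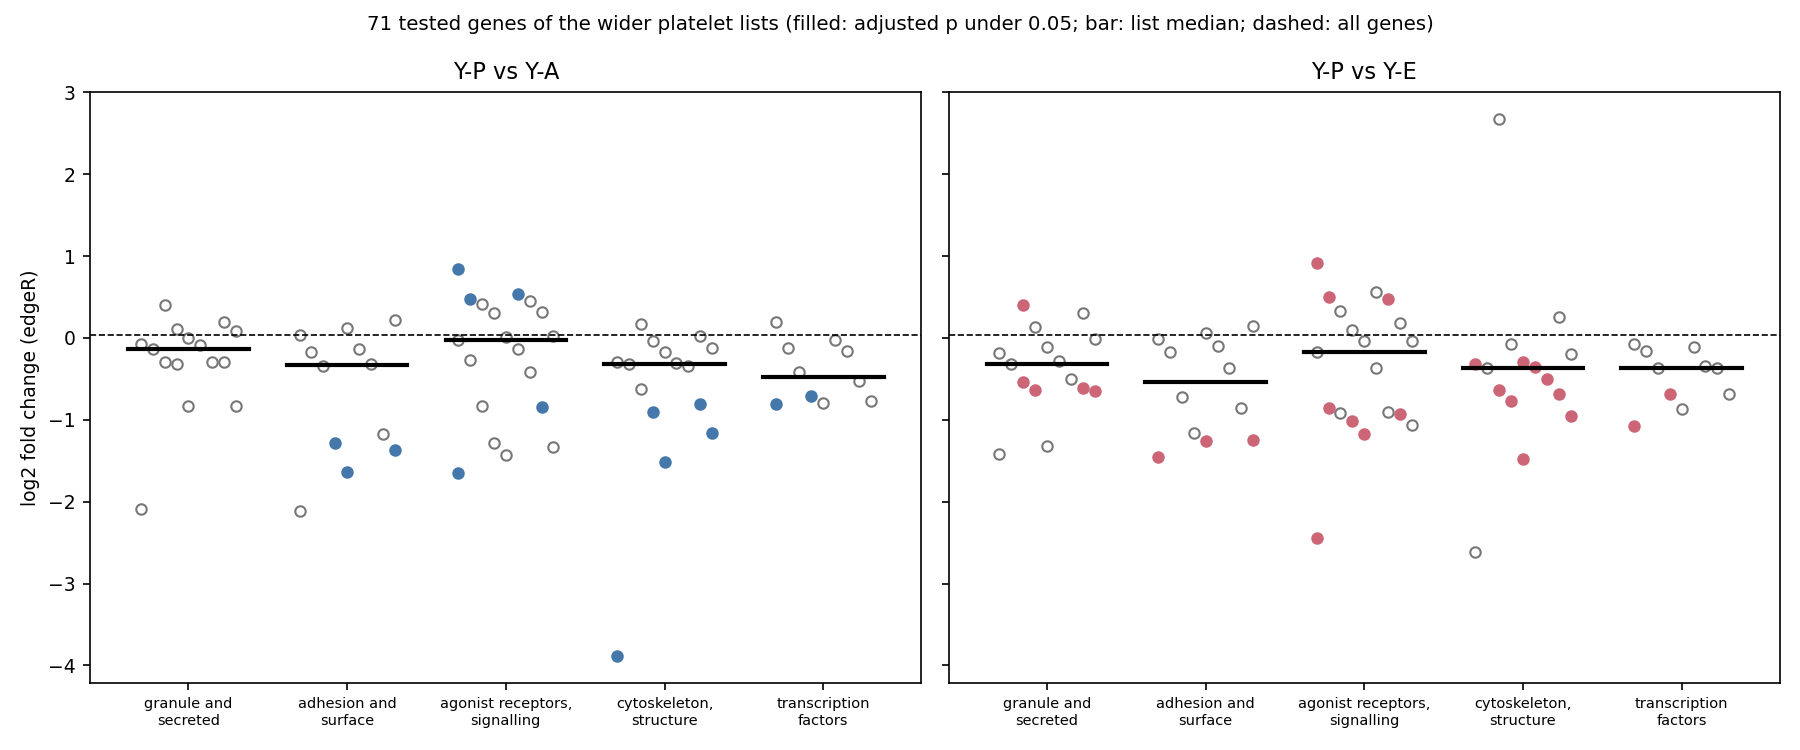
Log2 fold change from edgeR (y axis) of the 71 tested genes in 5 platelet lists (x axis), for Y-P vs. Y-A (left) and Y-P vs. Y-E (right). Filled points have an adjusted p under 0.05, bars are list medians, and the dashed line is the median of all genes; 12 and 23 filled points lie below 0, and 3 and 4 above it.

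Between estrus and anestrus the largest differences of the wider lists all missed the threshold. On the positive side these were *F2RL2*, a cofactor of thrombin receptors, at 1.33 (adjusted p = 0.701, edgeR), *F2RL3* at 1.01 (0.987) and *TBXAS1* at 0.67 (0.381). On the negative side they were *TUBA8* at −3.30 (0.576), *CAVIN2* at −1.27 (0.960) and *PEAR1* at −0.95 (0.999). Except for *TBXAS1*, each averaged at most 2.06 CPM in both stages.

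Genes of other blood cells moved with the stages as well. The summed level of the 8 platelet genes was 350 to 439 CPM in the Y-A group, 266 to 446 CPM in the Y-E group and 168 to 234 CPM in the Y-P group. Reticulocyte markers (5 with a row) summed to 439 to 10575 CPM in the Y-A group, 92.6 to 171 CPM in 5 Y-E libraries, 4494 CPM in Y-E replicate 6 and 39.0 to 122 CPM in the Y-P group, and 5 of 5 fell against anestrus and 4 of 5 against estrus. Neutrophil markers (7 tested) summed to 3709 to 9332, 4750 to 12554 and 2685 to 5974 CPM in anestrus, estrus and pregnancy. Of these 7, 1 fell against anestrus (*LTF*, lactoferrin, adjusted p = 0.0408, edgeR, past the test in 10 of the 18 fits without 1 library) and 6 against estrus. T cell markers summed to 551 to 685, 541 to 711 and 646 to 1195 CPM, and 2 of 4, *CD3G* and *CD5*, rose in each comparison with pregnancy (*LTF* and these 2 were named after their values were seen). Beside these counts, 3.61% of all genes fell and 2.22% rose against anestrus, and 8.68% fell and 5.77% rose against estrus. Monocyte markers (432 to 1799 CPM over all libraries) and B cell markers (515 to 2117 CPM) had 0 genes past the test in edgeR. At an unadjusted p under 0.05 there was 1 gene of each list in each comparison with pregnancy, and DESeq2 called 1 gene of each against estrus. The part of these cell types in the platelet gene differences was not tested.

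*VWF* and *SELP* are also genes of endothelium, and *MYLK* and *PDE3A* of smooth muscle, so markers of both were read in the same libraries. Endothelial markers summed to 12.5 to 21.5 CPM in the Y-A group, 11.0 to 24.7 CPM in the Y-E group and 11.5 to 15.7 CPM in the Y-P group. Of the 7 listed, *ROBO4* and *EMCN* were at or under 3 counts in 15 and 16 of the 18 libraries. The 5 tested, *CDH5*, *KDR*, *TEK*, *TIE1* and *ERG*, were above 3 counts in every library, from 8 for *TEK* to 494 for *ERG*. Of 5 tested endothelial markers, 1 fell against anestrus, beside 3.61% of all genes, 2 fell against estrus, beside 8.68%, and none rose. *CDH5*, the cadherin of endothelial junctions, averaged 1.27, 0.898 and 0.372 CPM by stage and stood at −1.77 against anestrus (adjusted p = 0.0210, edgeR) and −1.27 against estrus (0.0461; without Y-E replicate 6 0.0988), the latter past the test in 5 of the 18 fits without 1 library. *ERG*, a transcription factor of endothelium, stood at −0.62 against anestrus (0.0881) and −0.66 against estrus (0.0432; without Y-E replicate 6 0.0224), the latter past the test in 9 of the 18. With library size alone, 0 of the 5 passed against estrus. The receptors *TIE1* (0.69 and 0.70, adjusted p = 0.276 and 0.221, edgeR) and *TEK* (0.37 and 0.98, 0.661 and 0.134) had positive values, and *KDR* had −0.31 and −0.35 (0.799 and 0.738). Smooth muscle markers summed to 2.27 to 5.83, 1.96 to 3.52 and 1.91 to 3.64 CPM by stage. *CNN1*, *DES* and *LMOD1* were at or under 3 counts in 16, 17 and 13 of the 18 libraries. The 2 tested genes, *ACTG2* and *MYH11*, had 0 to 22 and 60 to 156 counts per library. In edgeR or DESeq2, 0 of these 2 passed the test. The 1 gene at an unadjusted p under 0.05 was *MYH11* against anestrus (log2 fold change −0.58, adjusted p = 0.198, edgeR). The plot of summed levels places these lists beside the platelet genes.

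**Figure D5:**
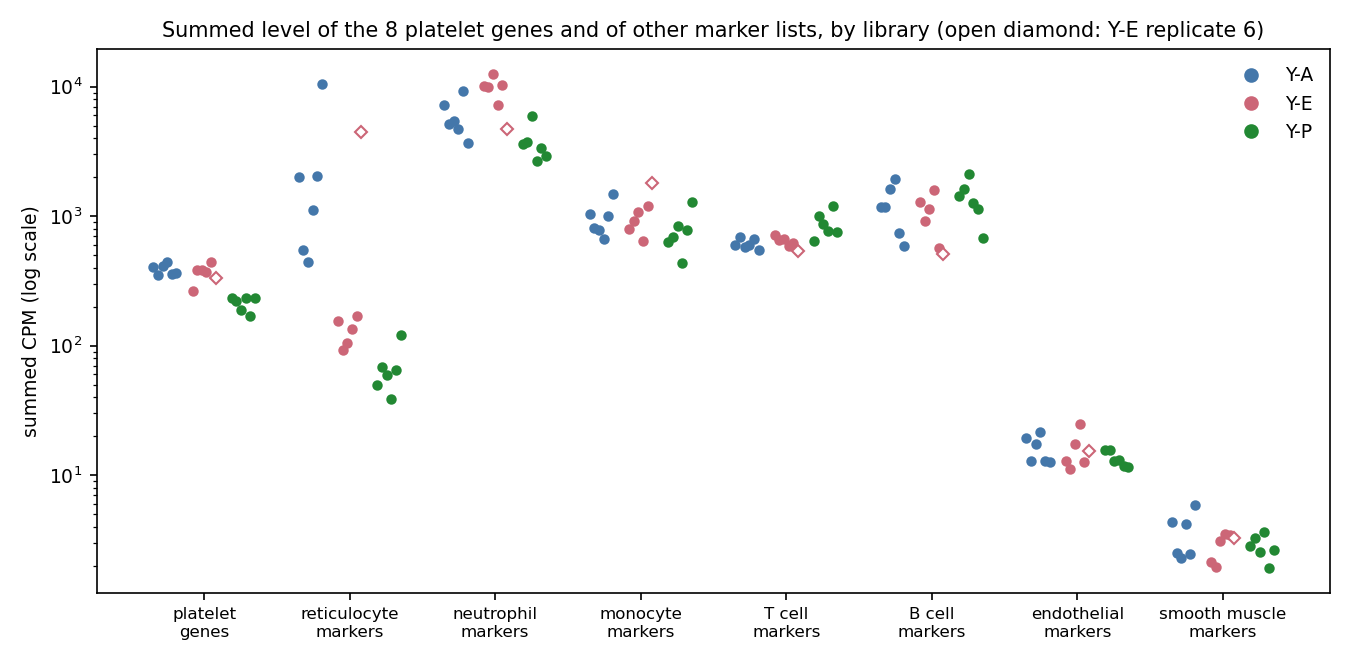
Summed CPM (y axis, log scale) of the 8 platelet genes and of 7 marker lists (x axis) in each library, coloured by stage; the open diamond is Y-E replicate 6. The platelet sums of the Y-P group (168 to 234 CPM) lie below those of both other stages, while reticulocyte sums span 39.0 to 10575 CPM.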

How the data were processed

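Whole blood RNA was measured at 3 stages, 6 libraries each, grouped by the sample titles. Per the labels and methods, the authors selected polyadenylated RNA for strand-marked libraries, trimmed reads with cutadapt 1.9, aligned them with HISAT2 2.2.1 to the *Bos grunniens* genome, and assembled transcripts with StringTie 2.1.6. The deposited FPKM values come from StringTie and ballgown. The authors also deposited whole-number counts, not normalized; how they were counted, and whether by strand, is not given in the sources used here.

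The edgeR package (4.0.16, under R 4.3.3) tested the counts (TMM, filterByExpr, quasi-likelihood, stage as the only factor, all 18 libraries, two-sided, Benjamini-Hochberg over 14508 genes per comparison). CPM are TMM-normalized values computed from the deposited counts. A gene passed at an adjusted p under 0.05, and the fold threshold was 1 on the log2 scale in either direction. Alternatives used DESeq2 1.42.0, limma 3.58.1 on log2(FPKM + 1) and log2(FPKM + 0.1), library size alone, no filter, the 2 stages compared, the replicate number as a block and each library left out. Sums, ranges, correlations and figures used Python 3.11.15, pandas 2.3.3, numpy 2.4.6 and matplotlib 3.10.9. Scripts were tested on simulated data. Errors between libraries are SDs. The limit of 3 counts covers counting error only.

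Neither the labels nor the methods tie replicate numbers to cows, so the numbers were not used as pairs. Blood was tracked through the stages in the cows chosen for sequencing, so libraries of different stages are not independent. Which of these libraries share a cow is not stated.

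The genes and lists were chosen with earlier results of these data known. Named beside the 8 genes were, per comparison, up to 6 list genes past the test in each direction, the 3 largest differences each way, and the 5 genes most like the mean z-score; others are marked. Marker lists were read as lists. No sequences were used here. A gene of the lists is not reported here.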

Additional observations from a re-analysis of the deposited data

Results flagged for a closer look

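Of 24 groups searched (8 genes in 3 stages, 6 libraries each), 1 held a library far from the others, and chance alone marks about 1 group in 20. *VWF* stood at 65.9 CPM in Y-A replicate 6. The gap to the next library was 0.642 of the range of the group, above Dixon's 95% critical value for 6 samples. Leaving out any 1 of the 18 libraries, this one included, kept *VWF* past the test in both comparisons with pregnancy, with a log2 fold change of −2.48 to −2.02 against anestrus.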

How the results depend on the processing

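Over all alternatives, the single results of the 8 genes kept direction and side of the threshold in 600 cases, lost the call in 19, gained it in 11 and turned direction in 8. With replicate numbers entered as a block (the replicate pairing), 7 of 8 genes passed against anestrus and 6 of 8 against estrus, through *ITGA2B* (adjusted p = 0.0225, edgeR) and *ITGB3* (0.0292 and 0.0434), and no other call of the 8 genes changed. Of the list genes, 20 and 25 passed, against 15 and 27 without the block. The share of all genes past the test in the blocked fit is not given here, so these counts cannot be set against it. Deviations of same-numbered libraries from the stage means correlated at 0.110 to 0.515 between estrus and anestrus, where 12 of 12 libraries correlated best with their own number. They ran from −0.0492 to 0.369 against anestrus (8 of 12) and −0.0544 to 0.400 against estrus (7 of 12) for pregnancy, so the pairing is a hint from the data and not known from the design. In DESeq2, 7 of 8 genes passed against anestrus, *ITGA2B* and *ITGB3* among them, and 5 of 8 against estrus. The count against anestrus was 3 with limma on log2(FPKM + 1), where *MYLK* lay under the minimum of 0.3 FPKM and *PDE3A* just missed the threshold. The count against estrus was 3 with only these 2 stages in the fit, where *GP1BA* did not pass the filter and *MYLK* had an adjusted p of 0.0549. Leaving out each library gave 0, 4 to 6, and 5 to 6 genes for estrus against anestrus, pregnancy against anestrus and pregnancy against estrus. Of the 71 list genes, 27 passed against estrus in edgeR, against 16 with limma on log2(FPKM + 1), 16 on log2(FPKM + 0.1) and 13 without the FPKM filter; the causes were not tested. Between estrus and anestrus DESeq2 gave 1 against 0. Leaving out each library gave 0, 8 to 17, and 14 to 26 list genes: 8 against anestrus without Y-P replicate 2 or Y-P replicate 4, and against estrus 16, 15, 14 and 15 without Y-E replicates 2, 3 and 5 and Y-P replicate 2. The turned directions were all between estrus and anestrus, where leaving out each library gave log2 fold changes of −0.092 to 0.21 for *SELP*, −0.16 to 0.00063 for *ITGB3* and −0.089 to 0.13 for *TUBB1*. *SELP* was negative without Y-A replicate 2, 5 or 6 or Y-E replicate 3 or 5, *ITGB3* positive without Y-E replicate 1, and *TUBB1* negative without Y-A replicate 6 or Y-E replicate 5. With library size alone, the median of all genes moved to 0.19 and 0.18 in the comparisons with pregnancy, and the median of the 8 genes to −1.24 and −1.08, with 5 genes past the test in each. *GP1BA*, *PDE3A* and *MYLK* rest on few counts per library, which limits the precision of their folds.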
